A study of Mus musculus with 33 samples.

Results

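The genes described here are 32 genes of cholesterol and fatty acid metabolism, taken by name from a fixed list out of the 32285 genes that were counted, and followed through the cell types, tissues and biotin sorts of a mouse tumour niche labelling experiment. Of the 32 genes, 13 encode enzymes of cholesterol synthesis, 4 encode regulators of lipid supply, and 9 encode enzymes that make, desaturate or elongate fatty acids. A further 5 encode proteins of sterol esterification, oxysterol production and lipoprotein handling, and 1 (Cpt1a) encodes the enzyme that admits long-chain fatty acids to mitochondrial oxidation.

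The series used SAMENT, a method that tags the surroundings of injected tumour cells with biotin, and then sorted the dissociated tissue into biotin positive and biotin negative cells for single-cell RNA sequencing. One experiment used intracardiac injection and covered bone, brain, liver and lung, with 4 positive and 4 negative samples of each tissue, 32 samples in all, sequenced from the 3′ end. The other used the injection that the labels name only IIA, covered bone alone, and was a 5′ end library pool in which hashtags gave 6 positive and 6 negative samples, numbered by injection 1 to 6. All groups shared the overnight exposure to the labelling substrate and the collagenase dissociation, and every negative sort came from the same kind of injected animal as its positive counterpart, so no group was free of tumour injection. The labels gave no strain, age, genotype or tumour line, and nothing in them says whether equal numbers are separate animals, so the p-values below measure the spread between these samples.

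Cholesterol is built from acetyl-CoA by way of mevalonate, isoprenoid units, squalene and lanosterol. When sterol in the endoplasmic reticulum is low, the transcription factor encoded by Srebf2 is released and raises most genes of the route, while the protein encoded by Insig1 holds it back. When sterol is in excess, oxysterols activate the LXR receptors, which raise sterol efflux, lipoprotein and fatty acid desaturation genes, among them Mylip, which encodes a ubiquitin ligase. Macrophages handle large sterol loads, and alveolar macrophages clear and recycle the lipids of lung surfactant.

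After filtering, 55366 intracardiac cells remained, with 94 to 3505 cells and 482617 to 44834665 unique molecular identifiers (UMIs) per sample, and 22362 IIA cells, with 249 to 3480 cells and 2149784 to 27903856 UMIs per sample. Cells were clustered without the lipid genes and each cluster was named from marker lists, so that "macrophage" below stands for a macrophage-like cluster and likewise for the other names. The 38 intracardiac clusters left 6 without a name and the 25 IIA clusters left 2. The biotin sorts differed greatly in cell types. Macrophage-type cells (macrophages, alveolar macrophages and microglia) made up 61.1, 91.6, 42.0 and 26.5% of lung positive replicates 1 to 4 against 1.56, 3.18, 1.71 and 3.38% of the lung negative replicates. Liver positive replicate 2 stood apart with 83.5% macrophages, and liver positive replicate 4 held only 94 cells. Levels are given as CPM, the UMIs of a gene scaled to the same total of UMIs in each sample, or in each class within a sample. They are compared between populations for one gene, never between genes, and never between the 3′ and 5′ libraries.

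Promoter windows are shown for 4 of the genes whose levels moved with the lung sort, because the enzymes of the pathway are known to be controlled at such elements. Each window runs from 250 bases before to 50 bases after the annotated start (RefSeq, GRCm38.p6), 5′ to 3′ on the strand of the gene, with matches to the sterol regulatory element TCACNCCAC and to the CCAAT box, on either strand, in capitals. Hmgcs1 encodes the synthase that commits acetyl-CoA to the mevalonate route, and its window is chr13:119690101-119690400 on the plus strand. Mvd encodes the decarboxylase that makes the first isoprenoid unit, at chr8:122443373-122443672 on the minus strand. The Cpt1a window is chr19:3323051-3323350 on the plus strand, at an annotated start inside the gene, which begins at position 3322326. Pltp encodes the phospholipid transfer protein of lipoproteins, at chr2:164857659-164857958 on the minus strand.
Hmgcs1: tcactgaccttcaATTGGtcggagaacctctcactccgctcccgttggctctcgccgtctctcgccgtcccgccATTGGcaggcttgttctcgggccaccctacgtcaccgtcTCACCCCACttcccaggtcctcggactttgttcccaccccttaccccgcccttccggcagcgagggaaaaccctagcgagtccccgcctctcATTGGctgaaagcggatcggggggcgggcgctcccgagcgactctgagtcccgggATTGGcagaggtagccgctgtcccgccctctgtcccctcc
Mvd: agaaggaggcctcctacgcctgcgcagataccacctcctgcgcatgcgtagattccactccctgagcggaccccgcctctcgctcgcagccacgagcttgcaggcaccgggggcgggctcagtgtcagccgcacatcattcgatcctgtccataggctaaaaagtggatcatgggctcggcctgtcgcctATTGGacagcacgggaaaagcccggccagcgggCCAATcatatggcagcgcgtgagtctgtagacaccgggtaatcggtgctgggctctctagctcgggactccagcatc
Cpt1a: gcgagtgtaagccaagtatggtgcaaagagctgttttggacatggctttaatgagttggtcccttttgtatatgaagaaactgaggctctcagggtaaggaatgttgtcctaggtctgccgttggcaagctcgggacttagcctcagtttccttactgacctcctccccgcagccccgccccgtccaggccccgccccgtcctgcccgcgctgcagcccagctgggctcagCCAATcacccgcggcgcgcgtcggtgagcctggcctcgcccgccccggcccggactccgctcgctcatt
Pltp: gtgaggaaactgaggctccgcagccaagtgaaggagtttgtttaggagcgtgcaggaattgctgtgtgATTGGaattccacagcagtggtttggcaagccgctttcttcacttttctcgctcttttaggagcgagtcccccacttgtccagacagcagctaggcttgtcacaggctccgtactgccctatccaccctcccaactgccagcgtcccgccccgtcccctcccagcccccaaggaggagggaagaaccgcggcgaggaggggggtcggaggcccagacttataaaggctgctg

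Of the 32 genes, 25 had such a window in the table used, 30 windows in all. The sterol regulatory element occurred in 1 of the 30 windows, that of Hmgcs1, where it starts 137 bases before the annotated start, against 1.24% of all 32851 windows. Without its first letter (CACNCCAC) it occurred in 2 windows, those of Hmgcs1 and Insig1, against 6.24% of all windows. The CCAAT box occurred in 22 of the 30 windows (73.3%), against 37.4% of all windows, and in a window of each of the 10 cholesterol synthesis enzymes that had one. Windows of the cell cycle genes, listed for comparison, held it in 87.5%. These are matches of letters within 300 bases, and other sites were not searched.

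Among the 15 named cell classes of the intracardiac experiment with at least 20 cells in at least 3 samples, the summed level of the 13 cholesterol synthesis enzymes was highest in alveolar macrophages, plasmacytoid dendritic cells and granulocyte precursors. A class of epithelial or tumour cells with leading genes Clu, Alb and Krt18, which reached that size in 1 liver sample only, stood at 523 CPM. The enzyme sum was 374 ± 75.7 CPM (SD, n = 5 samples) in alveolar macrophages and 342 ± 160 (n = 9) in plasmacytoid dendritic cells. It was 300 ± 81.7 (n = 11) in granulocyte precursors, and the spreads of these 3 classes overlapped. With at least 50 cells per sample it was 375 CPM in alveolar macrophages and 423 in plasmacytoid dendritic cells. The plasmacytoid samples were all negative ones of bone, brain and liver, and the alveolar macrophage samples came from lung and were mostly positive. Class, tissue and sort therefore cannot be told apart between them. Fdps alone averaged 172 CPM in granulocyte precursors, and no other of the enzymes had that class first or second. In plasmacytoid dendritic cells, negative replicate 1 stood at 464, 580 and 584 CPM in bone, brain and liver. The other samples of that class ran from 174 to 342 CPM. Neutrophil precursors stood at 196 ± 42.6 CPM (n = 20), conventional dendritic cells at 170 ± 75.7 (n = 17), macrophages at 151 ± 61.7 (n = 25) and mature neutrophils, the lowest class, at 78.7 ± 10.6 (n = 31). Since the classes were made from these cells, the order is a description and was not tested. Within single samples it repeated often. The enzyme sum was higher in alveolar macrophages than in macrophages in 5 of 5 samples with both (median ratio 2.53), higher in plasmacytoid than in conventional dendritic cells in 6 of 6 (1.92), and higher in granulocyte precursors than in neutrophils in 11 of 11 (3.76).

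**Figure D1:**
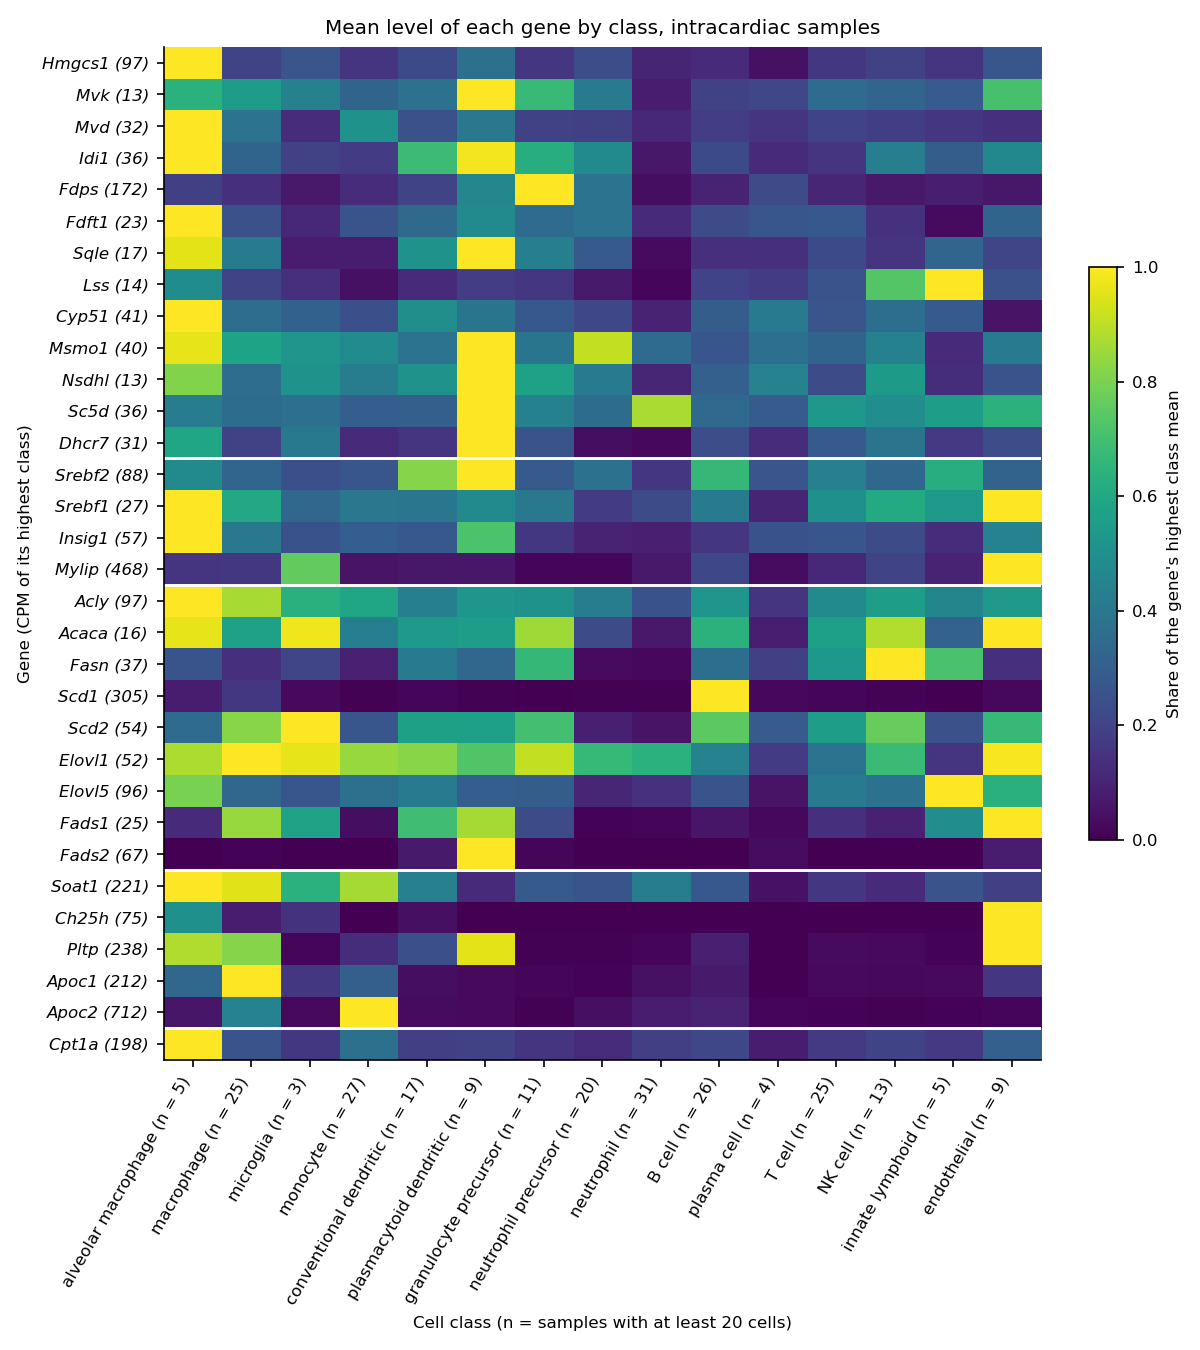
Mean level of each of the 32 genes (vertical axis, with the CPM of its highest class) in 15 cell classes (horizontal axis, n samples each) of the intracardiac experiment, coloured as the share of that gene's highest class mean, with white lines between the groups of genes. Most cholesterol synthesis enzymes are brightest in alveolar macrophages or plasmacytoid dendritic cells, Fdps in granulocyte precursors, Scd1 in B cells and Fads2 in plasmacytoid dendritic cells.

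The enzymes did not share one pattern. Hmgcs1 averaged 96.7 ± 23.7 CPM in alveolar macrophages (n = 5) and 35.6 ± 25.0 in plasmacytoid dendritic cells (n = 9), the next class. In the 5 samples that held both classes it averaged 96.7 CPM in alveolar macrophages and 22.3 in macrophages, and was higher in the former in 5 of 5. Mvd (31.5 ± 5.15 CPM), Fdft1, squalene synthase (23.0 ± 7.36), and Cyp51, the lanosterol demethylase (40.9 ± 11.9), were also highest in alveolar macrophages. Idi1, the isomerase of isoprenoid units, was as high in plasmacytoid dendritic cells (35.5 ± 21.5 CPM) as in alveolar macrophages (36.2 ± 12.4). Sqle, the squalene epoxidase, stood likewise at 17.0 ± 12.7 and 16.4 ± 6.17 CPM in those 2 classes. Dhcr7, which completes cholesterol, stood at 30.8 ± 13.9 CPM in plasmacytoid dendritic cells and 18.2 ± 5.97 in alveolar macrophages. Within plasmacytoid dendritic cells, Hmgcs1, Idi1, Sqle and Dhcr7 were each highest in negative replicate 1 of bone, brain and liver.

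Fdps, which makes farnesyl diphosphate for both sterols and protein prenylation, followed the granulocyte line instead. It averaged 172 ± 60.7 CPM in granulocyte precursors, 65.7 ± 23.2 in neutrophil precursors and 6.70 ± 4.13 in neutrophils, and it was higher in granulocyte precursors than in neutrophils in 11 of 11 samples. Sc5d, the lathosterol desaturase, ran the opposite way: in 20 of 20 samples it was higher in neutrophils than in their precursors, with means of 25.5 and 12.9 CPM. Lss, which closes squalene epoxide into lanosterol, was highest in innate lymphoid cells at 13.6 CPM, but with an SD of 17.4 over 5 samples this rank is not reliable.

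Among the regulators, Srebf2 was highest in plasmacytoid dendritic cells (88.0 ± 21.8 CPM) and lowest in neutrophils (14.0 ± 6.92). Insig1 was highest in alveolar macrophages (57.5 ± 20.4 CPM), then in plasmacytoid dendritic cells (41.3 ± 20.1). With at least 50 cells per sample these classes did not separate, at 49.8 and 50.5 CPM. Srebf1, the regulator of fatty acid synthesis, did not separate alveolar macrophages (27.0 ± 10.8 CPM) from endothelial cells (26.9 ± 14.4). Mylip averaged 468 ± 334 CPM in endothelial cells, 356 ± 46.1 in microglia, and 5.57 ± 2.997 in granulocyte precursors. Endothelial cells exceeded macrophages for Mylip in 7 of 9 samples.

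The fatty acid genes divided by cell type more sharply. Scd1, a stearoyl-CoA desaturase, averaged 305 ± 66.8 CPM in B cells (n = 26), and in all 21 samples with both classes B cells exceeded T cells, with means of 308 and 6.27 CPM. Its neighbour Scd2 did not follow it, with means of 36.6 CPM in B cells and 30.2 in T cells of the same samples and B cells higher in 15 of 21. Fads2, the delta-6 desaturase, averaged 67.2 ± 19.1 CPM in plasmacytoid dendritic cells, and in 6 of 6 samples exceeded conventional dendritic cells, with means of 68.9 and 4.54 CPM. Its neighbour Fads1, the delta-5 desaturase, stood at 21.8 and 17.0 CPM in the same 2 classes and was higher in 4 of 6. The pairs Scd1 and Scd2, and Fads1 and Fads2, each lie on chromosome 19, with 1 gene between them and 87585 and 81373 bases apart. Elovl5, an elongase of polyunsaturated chains, was highest in innate lymphoid cells (96.4 ± 30.3 CPM) and Fasn, fatty acid synthase, in NK cells (36.5 ± 19.2).

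The lipoprotein genes were highest in monocytes, macrophages and endothelial cells. Apoc2, the activator of lipoprotein lipase, averaged 712 CPM in monocytes and 53.5 in neutrophils of the same samples, and was higher in monocytes in 27 of 27. Apoc1, a neighbour of Apoc2 on chromosome 7 that inhibits lipoprotein uptake, averaged 212 ± 565 CPM in macrophages. One of the macrophage clusters, found in liver and led by Cd5l, Clec4f and Vsig4, genes known from Kupffer cells, lay far above the rest. In this cluster Apoc1 stood at 1122 CPM in liver negative replicate 3 and at 2740, 2968 and 2072 CPM in liver positive replicates 1 to 3. Scd1 stood there at 275, 46.1, 940 and 391 CPM in the same order of samples. Pltp was similar in endothelial cells (238 ± 351 CPM), plasmacytoid dendritic cells (228 ± 162), alveolar macrophages (210 ± 68.3) and macrophages (195 ± 214). Ch25h, which makes 25-hydroxycholesterol, was highest in endothelial cells (75.2 ± 143 CPM), then in alveolar macrophages (37.8 ± 26.7). This order is not reliable, since with at least 50 cells per sample it reversed, at 18.0 CPM in endothelial cells and 42.3 in alveolar macrophages. Soat1, which esterifies cholesterol for storage, was highest in alveolar macrophages, macrophages and monocytes (221 ± 36.0, 211 ± 71.2 and 191 ± 30.2 CPM). Cpt1a averaged 198 ± 27.9 CPM in alveolar macrophages and 73.5 ± 18.8 in monocytes, the next class.

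The first comparison asked whether these genes differed between biotin positive and biotin negative cells, with the UMIs of all kept cells of a sample added up. In such sums, fewer cells of a type and less RNA per cell cannot be told apart. Each tissue was fitted across all genes with edgeR's quasi-likelihood test, and a gene was called at a Benjamini-Hochberg adjusted p (FDR) under 0.05.

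In lung, 11 of the 31 genes tested rose in the positive sort and none fell, among them 8 of the 13 cholesterol synthesis enzymes. The background was 18.3% of 12331 genes called, 11.5% higher and 6.8% lower. The median log2 fold change of the 31 genes was 0.63 and that of all genes was -0.04. Hmgcs1 stood at 18.1, 12.6, 10.7 and 12.4 CPM in lung negative replicates 1 to 4 and at 43.0, 76.2, 61.3 and 33.1 CPM in the positive ones. All 4 positive samples lay above all 4 negative samples, and the log2 fold change was 1.73 ± 0.28 (SE, edgeR FDR 0.00516). Mvd stood at 6.66, 6.46, 6.99 and 8.90 CPM in the negative and at 22.4, 24.6, 17.6 and 15.7 CPM in the positive replicates, again without overlap (1.20 ± 0.20, edgeR FDR 0.00575).

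The other enzymes called were spread along the route. Idi1, from 5.27 to 10.8 CPM in the negative and 11.8 to 21.6 CPM in the positive samples, had a log2 fold change of 1.16. Fdft1 had 1.30 and Sqle 1.48, the 2 enzymes at and after squalene. Lss had 1.12 and Msmo1, the sterol methyl oxidase, 0.97. The 2 sorts did not overlap for these 5 enzymes. Dhcr7 had 1.21 (edgeR FDR 0.0488), and for this gene the lowest positive sample, at 3.86 CPM, lay below the highest negative one, at 5.27. Over all 31 genes tested, 12 had every positive lung sample above every negative one (17.7% of all genes did), namely the 7 non-overlapping enzymes above and Nsdhl, Fads1, Ch25h, Pltp and Cpt1a. Cyp51 (0.94, edgeR FDR 0.0568) and Nsdhl (0.63) did not pass the test.

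Ch25h, Pltp and Cpt1a completed the set. Ch25h stood at 0.173, 1.11, 0 and 0.0659 CPM in the negative replicates and at 13.5, 19.0, 37.8 and 9.08 CPM in the positive ones (log2 fold change 5.57 ± 0.92, edgeR FDR 0.00561). Pltp stood at 11.8, 26.9, 19.7 and 7.98 CPM against 108, 256, 105 and 84.7 CPM (2.74 ± 0.47, edgeR FDR 0.00625). Cpt1a stood at 30.4, 44.8, 59.9 and 43.0 CPM against 98.4, 174, 110 and 82.2 CPM (1.12 ± 0.26, edgeR FDR 0.0193). For each of these 3 genes the lowest positive sample exceeded the highest negative one. None of the 4 regulators and none of the 8 fatty acid genes tested passed.

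**Figure D2:**
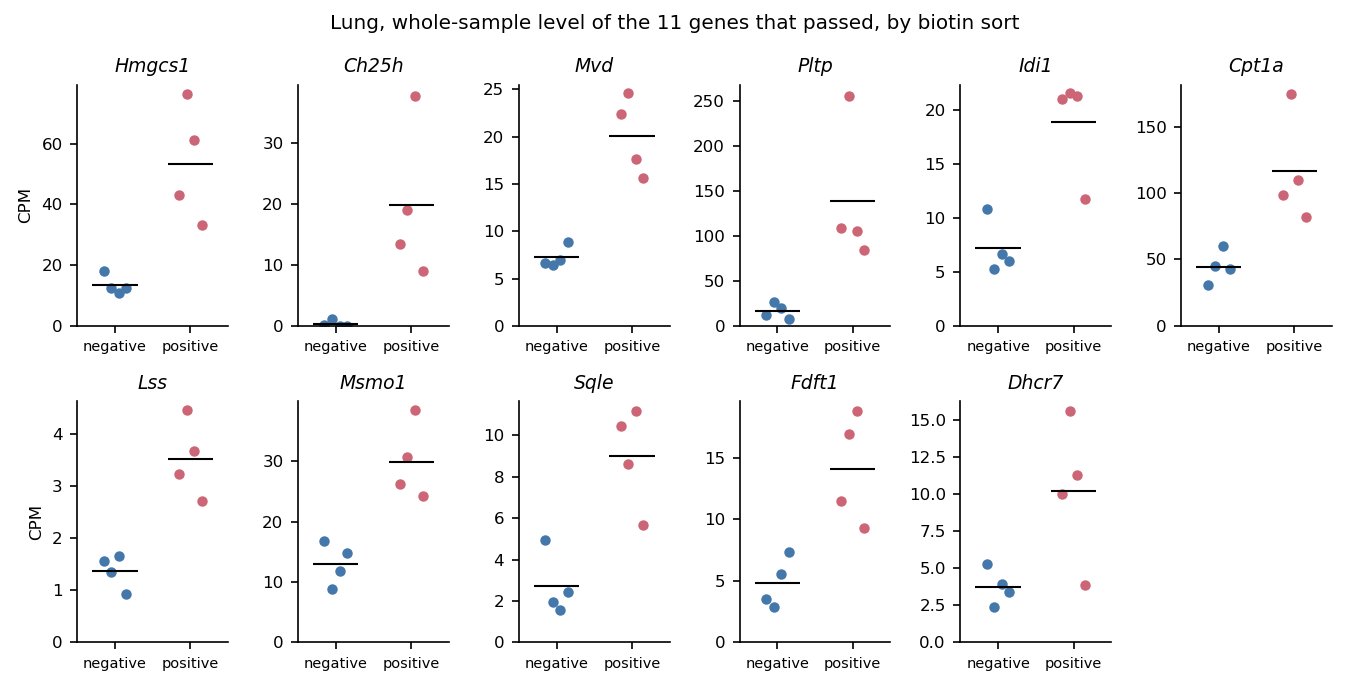
Level in CPM (vertical axes, from 0) of the 11 genes called in lung, in the 4 biotin negative and 4 biotin positive samples (points) with the mean (line). Each gene except Dhcr7 has all positive samples above all negative ones.

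Leaving out lung negative replicate 3 or positive replicate 3 lowered the count of 11 to 6 in each case, and leaving out negative replicate 4 lowered it to 7. With the replicate number as a block, Dhcr7 and Msmo1 were no longer called. Scaling by library size alone, which moved the median of all lung genes from -0.04 to 0.22 on the log2 scale, called 14 genes, all higher, adding Cyp51, Acly and Fads1, and reversed none of the 11. It moved the share of higher calls among all called lung genes from 62.8% to 82.2%. DESeq2 called 14 of the 32 genes, against 3322 of 15476 genes. Of these 14, 13 were higher, with Cyp51 and Fads1 added to the 11, and 1 was lower, Apoc2 (-1.35, adjusted p 0.0172).

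The sorts of lung also differed in alveolar macrophages, at 44.8, 81.3, 37.8 and 14.7% of positive replicates 1 to 4 and 0.181, 0.834, 0.0900 and 0.0325% of the negative ones. The summed level of the 13 alveolar macrophage markers ran from 6015 to 26941 CPM in the positive and from 1896 to 3587 CPM in the negative samples. When macrophage-type cells were left out of every sum, an alternative chosen after the data were seen, edgeR called none of 30 genes tested and none of 11404 genes in all, and 3 of the 30 had an unadjusted p under 0.05 (Pltp, Fads1 and Scd1). Hmgcs1 then had a log2 fold change of 0.36 and Cpt1a one of 0.23, and Mvd, Lss and Dhcr7 had the opposite sign, at -0.14, -0.53 and -0.33. Pltp kept 2.06 and Fads1 1.81, neither past the threshold (edgeR FDR 0.373 and 0.396). These sums held fewer cells, and how far that lowered the count was not tested. Ch25h was too low to be tested in them.

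**Figure D3:**
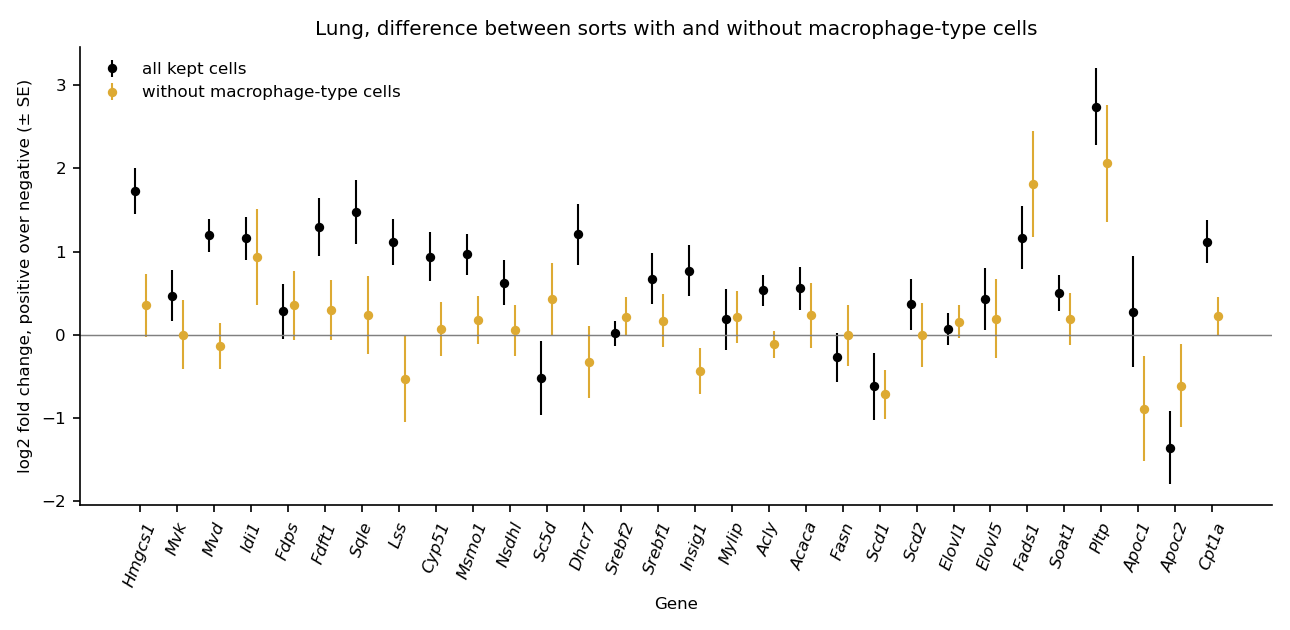
Log2 fold change of positive over negative lung samples with its standard error (vertical axis) for 30 genes (horizontal axis), with all kept cells (black) and without macrophage-type cells (yellow). The cholesterol synthesis enzymes that lie near or above 1 with all cells move towards 0 without them, except Idi1, while Pltp and Fads1 stay above 1.

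Other lipid genes that are not among the 32 were read from 3 further lists in the same lung fit. Of all 12331 genes in that fit, 1416 rose and 838 fell (18.3% called). Of 12 LXR and sterol efflux genes, 6 rose, among them Abcg1, a sterol exporter (log2 fold change 3.36), Lipa, the lysosomal lipase (2.15), and Lpl, lipoprotein lipase (5.33), and 1 fell. Of 16 fatty acid uptake and storage genes tested, 6 rose, among them the fatty acid binding protein Fabp4 (3.91) and the scavenger receptor Cd36 (3.37). Of 10 fatty acid oxidation genes tested, 5 rose, among them Pparg, the lipid-sensing nuclear receptor (4.51), and Cpt2 (1.49).

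In bone, edgeR called none of the 31 genes and none of 12533 genes in all (0% called). At an unadjusted p under 0.05 there were 6 of the 31, and DESeq2 called 1, Apoc2. Apoc2 stood at 163, 161, 95.6 and 57.7 CPM in bone negative replicates 1 to 4 and at 54.7, 82.3, 23.2 and 29.98 CPM in the positive ones (log2 fold change -1.50 ± 0.39, edgeR FDR 0.615, DESeq2 adjusted p 0.0441). Its positive samples lay below its negative ones except where positive replicate 2 exceeded negative replicate 4. Monocytes, the class highest in Apoc2, were 25.5, 15, 9.73 and 3.57% of the negative and 10.1, 3.33, 4.84 and 2.31% of the positive samples, and their part in the difference was not tested. Mvd had a log2 fold change of -0.70, with negative replicate 1 (14.3 CPM) far from the other negative samples (5.94 to 7.16 CPM).

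In brain, 1 of the 31 genes rose, Fads1, against 3.06% of 11064 genes called. Fads1 stood at 3.75, 4.74, 5.30 and 2.86 CPM in the negative and at 15.2, 46.4, 11.3 and 14.6 CPM in the positive samples, which did not overlap (2.11 ± 0.45, edgeR FDR 0.0418). The call was lost without any 1 of the 4 negative samples or positive replicate 4. DESeq2 called 6 genes, against 1565 of 14927 genes. Of these, Fads1 and Mylip were higher, and Mvd (-0.925, adjusted p 0.0269), Cpt1a, Scd1 and Apoc2 were lower. The fit with the replicate number as a block called 3 genes, Fads1 (1.95, edgeR FDR 0.0209), Mylip (1.80, edgeR FDR 0.0228) and Apoc2 (-1.72, edgeR FDR 0.0144), against 6.89% of genes. Mylip stood at 17.3, 40.3, 50.7 and 14.8 CPM in the negative and at 34.9, 222, 154 and 145 CPM in the positive samples, where positive replicate 1 lay among the negative ones.

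Brain positive samples held 39.5, 85.2, 36.8 and 57.0% macrophage-type cells, of which microglia were 3.26, 3.70, 22.9 and 45.6% of the sample, against 1.07 to 8.29% macrophage-type cells in the negative ones. Without macrophage-type cells none of 30 genes tested was called in brain by edgeR and 3 had an unadjusted p under 0.05, against 0.294% of 10535 genes called. Fads1 then had a log2 fold change of 1.20 (edgeR FDR 1.0) and Mylip one of -0.05. Mvd ran the other way, at 9.21, 6.72, 8.14 and 8.20 CPM in the negative and 6.72, 5.60, 3.76 and 4.79 CPM in the positive samples (-0.89, edgeR FDR 0.0909), with every positive value below every negative one, as for 0.931% of genes.

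In liver, edgeR called none of the 31 genes and none of 11854 genes (0% called). At an unadjusted p under 0.05 there were 6 of the 31, and DESeq2 called 1, Fads1. Fads1 stood at 3.63, 5.36, 3.67 and 2.04 CPM in the negative and 16.2, 15.8, 9.96 and 4.14 CPM in the positive samples (1.504, edgeR FDR 0.15, DESeq2 adjusted p 0.016), overlapping only through positive replicate 4, the sample of 94 cells. The highest values came from 1 sample, the macrophage-rich positive replicate 2, with 2494 CPM of Apoc1, 793 CPM of Scd1 and 953 CPM of Pltp. In the other 3 positive samples Apoc1 stood at 303, 165 and 4.14 CPM, against 8.46 to 70.4 CPM in the negative ones. Mvd in liver again lay lower in every positive sample (9.18, 8.84, 5.38 and 8.29 CPM) than in every negative one (14.2, 10.3, 9.75 and 9.71 CPM), which held for 1.29% of genes, without passing the test (-0.71, edgeR FDR 0.304).

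The next question was whether the difference between sorts itself differed between tissues, tested as an interaction of tissue and sort over all 32 intracardiac samples. It did for 3 of the 32 genes, against 1.15% of 13963 genes: Mvd (edgeR FDR 0.00038), Cpt1a (edgeR FDR 0.00972) and Hmgcs1 (edgeR FDR 0.0149). For Mvd the log2 fold changes in bone, brain, liver and lung were -0.70, -0.89, -0.71 and 1.20. For Hmgcs1 they were -0.04, -0.17, 0.33 and 1.73, and for Cpt1a -0.30, -0.59, 0.17 and 1.12. Set against the mean of the other tissues, the lung difference exceeded theirs by 2.03 ± 0.25 for Mvd (edgeR FDR 2.93e-05), 1.75 ± 0.32 for Hmgcs1 (edgeR FDR 0.00215) and 1.42 ± 0.26 for Cpt1a (edgeR FDR 0.00224), where 2.54% of genes passed. No gene of the 32 passed when bone, brain or liver was set against the rest (edgeR, with 3, 7 and 4 genes at an unadjusted p under 0.05). Hmgcs1 missed the threshold without lung negative replicate 3 (edgeR FDR 0.0553). With the replicate block 6 genes passed, against 4.94% of genes. Without macrophage-type cells edgeR called none, with Pltp alone at an unadjusted p under 0.05 (0.0308), against 0.00755% of 13250 genes.

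**Figure D4:**
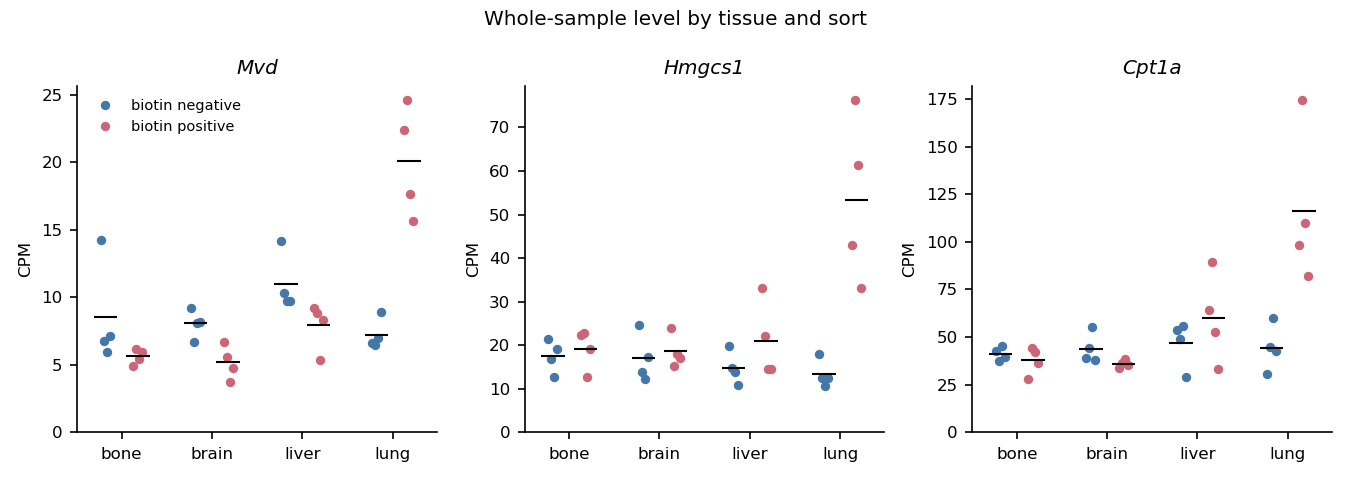
Level in CPM (vertical axes, from 0) of Mvd, Hmgcs1 and Cpt1a in the negative (blue) and positive (red) samples of 4 tissues (horizontal axes), with the mean as a line. In lung the positive samples lie above the negative ones for all 3 genes, while in brain and liver the positive samples lie below the negative ones for Mvd.

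Within single cell classes of the intracardiac samples, the same comparison was fitted for each class with at least 10 cells in at least 3 samples of each sort. EdgeR called none of the genes tested in any of the 6 classes of bone, 4 of brain, 5 of liver and 6 of lung. The genes tested per class ranged from 1 (liver endothelial cells) to 28 (bone granulocyte precursors). None of the cholesterol synthesis enzymes had enough counts in T cells of bone and brain or B cells of bone, liver and lung. The same held for brain macrophages and liver endothelial cells. Apart from liver macrophages, each class had 0 to 2 of the genes at an unadjusted p under 0.05, and DESeq2 called none outside that class. By background, edgeR called 3.71% of genes in brain macrophages (2.09% higher, 1.62% lower), 0.665% in lung conventional dendritic cells, 0.332% (0.0104% higher) in bone granulocyte precursors, 0.101% in lung macrophages and 0% in the other classes. Alveolar macrophages were too few in the negative lung samples for such a fit. In lung macrophages, where 15 genes were tested, their median log2 fold change was 0.10, that of all genes 0.02, and 1 of the 15 had an unadjusted p under 0.05. The replicate block added 1 call in bone, Scd2 in granulocyte precursors (0.54, edgeR FDR 0.0117), and 1 in brain, Apoc2 in macrophages (-0.92, edgeR FDR 0.0444). Different clusters held most of the brain macrophages in the sorts. A first cluster held 216 negative and 81 positive cells, and a second held 48 and 782. The part of these clusters in the Apoc2 difference was not tested.

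Liver macrophages came nearest to a difference, with 10 of 22 genes at an unadjusted p under 0.05 and none past the FDR (edgeR, 3 positive against 4 negative samples, 0% of 7386 genes called, 1113 of them at an unadjusted p under 0.05). The 6 lower ones included Fdps (-2.18, edgeR FDR 0.0877), Cyp51 (-2.05, edgeR FDR 0.0877) and Srebf2 (-0.85, edgeR FDR 0.252), and the 4 higher ones were Apoc1 (3.25, edgeR FDR 0.0877), Scd1 (3.60), Pltp (2.32) and Mylip (1.58). DESeq2 called Fdps, Cyp51 and Apoc1. The replicate block called 4, Pltp (2.12, edgeR FDR 0.0265), Fdps (-2.19, edgeR FDR 0.0153), Apoc1 (2.88, edgeR FDR 0.0149) and Scd1 (3.23, edgeR FDR 0.0311). Leaving out positive replicate 3 raised the count to 5, and leaving out positive replicate 1 raised it to 1. Different clusters held most of the class in the 2 sorts: 363 negative cells lay in a cluster with Arg1, Spp1 and Pf4 as leading genes and 42 in the Cd5l, Clec4f and Vsig4 cluster, whereas 250 and 965 positive cells did. The sum of 14 hepatocyte markers, all of them detected, ran from 43.8 to 339 CPM in the negative and from 177 to 937 CPM in the positive liver macrophages, with Alb, the albumin gene, at 0 to 11.3 CPM and 3.46 to 38.6 CPM. Its part in these differences was not tested.

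Between tissues, no difference in these genes was detectable in cells of the negative sort. Over 7 classes present in all 4 tissues, edgeR called none of the 4 (NK cells) to 26 (monocytes) genes tested in each class, against 0.056% to 3.83% of genes depending on class, and DESeq2 called none. At an unadjusted p under 0.05 edgeR gave 1 gene in conventional dendritic cells and 0 in the other classes. Without the filter on low counts 4 calls appeared.

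In the IIA bone experiment, fitted apart, 15 of 31 genes were called between the sorts, 11 higher and 4 lower in the positive sort. This share was no higher than the background, since 50.2% of 12625 genes were called, 27% higher and 23.2% lower. The fatty acid genes were mostly on the higher side, with 5 of 9 higher and 1 lower. Scd2 had a lowest, median and highest value of 25.7, 40.4 and 52.2 CPM in the 6 negative samples and of 73.7, 107 and 124 CPM in the 6 positive ones (log2 fold change 1.19 ± 0.15, edgeR FDR 7.43e-05), without overlap. Acaca, which makes malonyl-CoA, ran from 21.3 to 26.3 CPM in the negative and from 29.6 to 55.8 CPM in the positive samples (0.76 ± 0.13, edgeR FDR 0.000579), and Fasn from 14.1 to 19.8 and from 20.0 to 42.9 CPM (0.75 ± 0.18, edgeR FDR 0.004). Scd1 fell by 1.68 on the log2 scale, from a median of 8.50 to one of 3.63 CPM, with overlap. Ch25h was too low for the edgeR filter, and DESeq2 called it higher (5.28, adjusted p 9.25e-05).

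Of the 13 cholesterol synthesis enzymes in IIA bone, 4 rose and 1 fell, a share no higher than the 50.2% of all genes called. Fdps had a lowest, median and highest value of 28.5, 36.5 and 39.6 CPM in the negative samples and of 48.8, 59.5 and 77.1 CPM in the positive ones (0.53 ± 0.11, edgeR FDR 0.00189). Dhcr7 ran from 4.91 to 6.80 CPM and from 9.09 to 12.3 CPM (0.64 ± 0.12, edgeR FDR 0.000869). Sqle (0.72) and Mvk, mevalonate kinase (0.46), also rose, and Msmo1 fell by 0.61 on the log2 scale. In all, 7 of the 31 genes tested had every positive IIA sample above every negative one, a share close to the 22% of all genes. These were Mvk, Fdps, Dhcr7, Srebf1, Acaca, Fasn and Scd2. Among the regulators Mylip fell by 0.85 and Srebf2 by 0.42, and Srebf1 rose by 0.23 (edgeR FDR 0.0488), a call that was lost under 17 of the 21 alternatives, DESeq2 among them (adjusted p 0.0801).

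The cell mixture of IIA bone also differed between the sorts. Granulocyte precursors made up 22.0, 3.30, 3.77, 17.7, 48.0 and 26.8% of positive samples 1 to 6 and 0.557 to 2.33% of the negative ones, and macrophages 13, 51.5, 36.0, 3.61, 4.86 and 4.87% against 0.521 to 4.94%. Leaving out granulocyte precursors, progenitors and unnamed cells lowered the count of called genes to 5, against 41.1% of all genes, and Elovl5 moved from 0.77 to -0.02, while Scd2 kept 0.99. Leaving out macrophages and osteoclasts left 12 called, against 54.2% of all genes, and Pltp moved from 1.75 to -0.47. Scaling by library size alone moved the median of all genes from 0.08 to 0.32 and the share of higher calls among called genes from 53.9% to 74.2%. Under it 13 genes were higher and 2 lower, and Msmo1 (-0.37, edgeR FDR 0.172) and Srebf2 (-0.18, edgeR FDR 0.295) were no longer called.

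Within macrophages of IIA bone, 3 of the 5 cholesterol synthesis enzymes tested, Idi1, Fdps and Cyp51, fell in the positive sort, as did Srebf2, whereas Pltp and Mylip rose. Of 17 genes tested these 6 were called, against 25.3% of 5938 genes (13% higher, 12.4% lower). Srebf1 (mean 37.6 CPM negative, 28.7 CPM positive), Scd2 (52.2 and 71.2 CPM) and Apoc2 (62.7 and 82.8 CPM) were tested and not called. The other 8 enzymes had too few counts to be tested, and of these Lss (mean 2.77 CPM negative, 6.43 CPM positive) and Dhcr7 (2.32 and 4.97 CPM) had higher means in the positive sort. The fit used 6 negative samples of 16 to 133 cells and 5 positive ones of 31 to 344 cells, since positive sample 4 had fewer than 10. Insig1 (mean 34.1 CPM negative, 12.3 CPM positive) and Ch25h (0.381 and 17.3 CPM) were also too low for the edgeR filter. DESeq2 called Insig1 lower (-1.48, adjusted p 0.0029) and Ch25h higher (4.08, adjusted p 0.00145), but neither Mylip nor Cyp51.

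Pltp had a lowest, median and highest value of 8.87, 31.3 and 73.9 CPM in the negative samples and stood at 239, 172, 138, 266 and 848 CPM in positive samples 1, 2, 3, 5 and 6, without overlap (3.36 ± 0.53, edgeR FDR 0.00024). Idi1 had 17.3, 38.7 and 70.9 CPM in the negative samples and 30.5, 9.69, 16.5, 14.6 and 20.7 CPM in the positive ones (-1.60 ± 0.33, edgeR FDR 0.00231). Fdps had 0, 56.2 and 90.0 CPM in the negative samples, the 0 in negative sample 4 with 16 cells, and 21.1, 23.0, 23.0, 23.6 and 20.7 CPM in the positive ones (-1.31 ± 0.35, edgeR FDR 0.0118). For Idi1 and Fdps the sorts overlapped through 1 or more low negative samples, although the positive samples all lay below the negative median. These 3 genes were called whichever sample was left out.

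Srebf2 had 51.8, 86.8 and 129 CPM in the negative samples and 72.8, 45.9, 52.5, 56.4 and 13.8 CPM in the positive ones (-0.85 ± 0.25, edgeR FDR 0.02), and was no longer called without positive sample 2 or 3 (edgeR FDR 0.065 and 0.0575). Mylip had 20.8, 25.5 and 69.1 CPM and 49.3, 40.8, 64.6, 63.7 and 117 CPM (0.96 ± 0.32, edgeR FDR 0.0339), and was no longer called without negative sample 1, 2, 3 or 6 or positive sample 3 or 5 (edgeR FDR 0.0602 to 0.0857). Cyp51 had 12.3, 31.3 and 57.1 CPM and 32.9, 4.59, 9.97, 21.8 and 0 CPM (-1.44 ± 0.51, edgeR FDR 0.0478), and was no longer called without positive sample 2 (-0.96, edgeR FDR 0.194), 3 or 6. The sorts overlapped for all 3. The 5 enzymes with enough counts to be tested all had negative log2 fold changes, with a median of -1.31 against 0.02 for all genes, where Msmo1 (-0.83, edgeR FDR 0.0886) and Hmgcs1 (-0.37) did not pass. The summed level of the 13 enzymes was 121, 290 and 464 CPM (lowest, median, highest) in the negative samples and 228, 145, 177, 180 and 152 CPM in the positive ones.

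**Figure D5:**
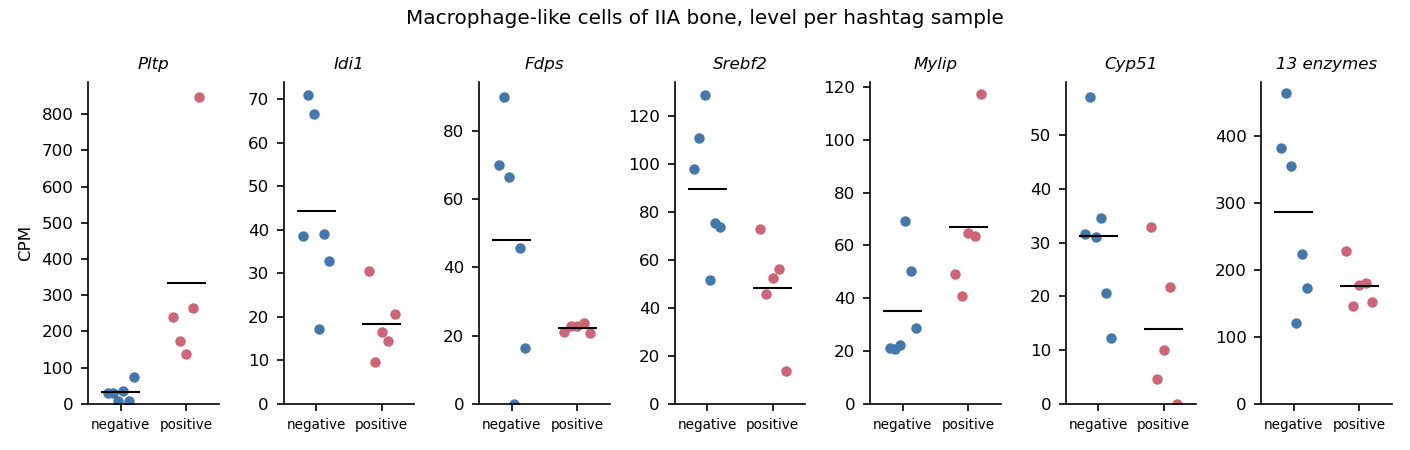
Level in CPM (vertical axes, from 0) of the 6 genes called in macrophages of IIA bone, and of the 13 enzymes summed, in 6 negative (blue) and 5 positive (red) hashtag samples, with the mean as a line. Pltp is higher in every positive sample than in any negative one, and Idi1, Fdps, Srebf2 and Cyp51 lie lower on average with overlap.

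The further lipid lists were read in the same macrophage fit, where 770 of all 5938 genes rose and 734 fell (25.3% called). Of 11 LXR and sterol efflux genes tested, 8 rose and 1 fell: Apoe, the lipoprotein that carries exported sterol (3.62), Abca1, the exporter (2.21), and Lipa (2.07) rose, and Abca7 fell by 1.48 on the log2 scale. The summed level of that list ran from 1167 to 1895 CPM in the negative and from 3876 to 11084 CPM in the positive samples. Of 10 fatty acid uptake and storage genes 4 rose and 2 fell, Cd36 rising by 3.62. The cluster led by Arg1, Pf4 and Hmox1 held all 381 negative and 715 of the positive macrophages, and a cluster led by Vcam1, Cd5l and Mertk held the other 78 positive ones. With the largest cluster alone Pltp, Idi1, Fdps, Srebf2 and Cyp51 were called, together with 1 gene not called in the whole class, whereas Mylip no longer passed. Markers of other cell types also moved in these macrophages. The sum of 14 hepatocyte markers ran from 48.0 to 73.9 CPM in the negative and from 91.6 to 421 CPM in the positive samples. Of these 14, 4 had any UMI, Trf, the transferrin gene, carried nearly all of the sum (45.8 to 69.8 CPM and 91.6 to 421 CPM), and Alb, Serpina1a, Fgb and Ahsg were at 0 in every sample. The sum of 9 astrocyte markers ran from 3.503 to 26.0 CPM and from 14.1 to 145 CPM, with 6 of them detected, Aqp4 at 0 in every sample and Slc1a3, a glutamate transporter, at up to 110 CPM in the positive ones. What part these have in the result was not tested.

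Stem or progenitor cells of IIA bone were the only other class with calls, 4 of 13 genes tested against 18.5% of 5841 genes, over 3 positive samples of 11 to 24 cells and 6 negative ones. Elovl1, an elongase of saturated chains, stood at 88.9, 59.8 and 49.5 CPM in positive samples 1, 5 and 6 and at 15.9 to 35.6 CPM in the negative ones. Fads2 stood at 114, 66.5 and 74.3 CPM against 7.40 to 44.5 CPM. Elovl5 stood at 50.8, 33.2 and 24.8 CPM against 59.2 to 106 CPM, and Mylip at 38.1, 24.4 and 13.8 CPM against 33.8 to 81.4 CPM. The log2 fold changes were 1.30, 1.45, -1.26 and -1.22 in that order, and only Mylip overlapped between sorts. DESeq2 called Elovl5 and Fads2. Leaving out positive sample 5 ended the calls of Elovl1 and Mylip, and leaving out positive sample 6 those of Elovl5 and Mylip (edgeR FDR 0.073 to 0.225); Mylip was also lost without negative sample 1 or 4. In IIA granulocyte precursors, neutrophil precursors, neutrophils, monocytes and stromal cells edgeR called none of the genes, against 8.65%, 11.1%, 16.2%, 0.415% and 3.03% of genes, with 0 to 2 genes per class at an unadjusted p under 0.05.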

How the data were processed

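Single-cell RNA sequencing of sorted cells was used: 32 samples of intracardiac injection and 1 pooled sample of IIA injection that hashtags split into 12. The values are UMI counts per gene and cell, which the authors deposited as matrices made with Cell Ranger (6.1.2 for the intracardiac and 7.1.0 for the IIA matrices, per the file headers). The submitters' processing notes also name Seurat and the build mm10. No intracardiac barcode shared by libraries (325, against 54716 in 1 library) recurred within a replicate number. This is a hint from the data that samples of the same number belong together, which the labels do not state.

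Cells were kept that had 500 UMIs or more, 200 detected genes or more and a mitochondrial share of 15% or less, and no deposited barcode lay below 500 UMIs. An IIA cell needed at least 10 counts of its leading hashtag and 3 times the next; the sort key names hashtags with another prefix than the count matrix, and they were matched by number. Counts were clustered with scanpy 1.11.5 and igraph 0.11.9 (2000 variable genes, 30 components, 15 neighbours, Leiden resolution 1) after leaving out 88 lipid genes. Clusters were named from 29 marker lists of 343 genes, and a name needed at least 3 markers among the leading genes. Of the 3 clusters named alveolar macrophage, 1, of 93 cells, was led by cell cycle genes. Doublets were kept, and leaving out the 5% of cells with the highest doublet scores was an alternative.

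Counts were summed per sample, or per sample and class with at least 10 cells (levels: at least 20), and tested with edgeR 4.0.16 in R 4.3.3 (TMM, filterByExpr, quasi-likelihood, Benjamini-Hochberg over all genes tested, threshold 0.05). Ch25h was too low for the edgeR filter in bone, liver and IIA bone, and Fads2 in brain and lung. Alternatives were DESeq2 1.42.0, other scalings, no filter, other cell thresholds, each sample left out and the replicate number as a block. The fits were tested on simulated data with known changes. With all cells, 8.16, 10.4 and 4.12% of 2-fold changes were recovered in lung, bone and liver, and 62.2% in IIA bone. Of 4-fold changes, 77, 69.1, 56.1 and 90.6% were recovered in that order. The interaction test recovered 10.1% of 2-fold and 46.4% of 4-fold changes. Calls of 0 in bone and liver therefore do not exclude 2-fold differences. Same-numbered samples of the 2 sorts deviated together in bone (correlations 0.440 to 0.734), brain (0.239 to 0.646) and liver (0.241 to 0.572), so the numbers pair samples there, as a hint from the data. CPM levels are descriptions without a test.

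All 32 genes are named. Other lists are given by counts, with at most 4 genes of smallest p named per list and comparison, and 1 further list is not reported here. The genes, lists and tests were chosen with earlier results of these data known.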

Additional observations from a re-analysis of the deposited data

Results flagged for a closer look

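The difference between sorts differed between tissues for 3 of the genes by the interaction test (edgeR): Mvd at an adjusted p of 0.00038, Cpt1a at 0.00972 and Hmgcs1 at 0.0149. For each of them lung was the tissue with the highest positive values.

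A single sample stood far from the other samples of its group for 26 of the 320 groups of values examined, where chance gives about 1 in 20. Liver positive replicate 2, in which 83.5% of cells were macrophages, was the high sample for 4 genes: Apoc1 at 2494 CPM, Pltp at 953.3, Scd1 at 793.3 and Acly, which supplies acetyl-CoA from citrate, at 280.1. Fads2 was high in liver positive replicate 1 at 22.71 CPM.

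In the liver negative sort, replicate 1 was high for Mvd at 14.17 CPM and Mvk at 5.648, replicate 2 was high for Ch25h at 1.812, and replicate 4 was low for Acly at 28.81. In the bone negative sort, replicate 1 was high for Mvd at 14.25 CPM and replicate 4 for Fdps at 103.2. In the bone positive sort, replicate 3 was high for Fasn at 20.62 CPM and replicate 2 for Apoc1 at 32.79.

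Brain positive replicate 2, with 85.2% macrophage-type cells, was high for Fads1 at 46.37 CPM, Elovl5 at 47.0 and Apoc1 at 141.9. Brain positive replicate 3 was high for Sc5d at 27.86 CPM and brain negative replicate 1 for Dhcr7 at 10.63. Lung positive replicate 2, with 91.6% macrophage-type cells, was high for Pltp at 255.5 CPM, Mylip at 107.8 and Apoc1 at 115.4. Lung positive replicate 4, with 26.5%, was low for Idi1 at 11.80 CPM. In the lung negative sort, replicate 1 was high for Cyp51 at 18.06 CPM and replicate 2 for Ch25h at 1.105. In IIA bone, positive sample 1 was high for Sc5d at 21.11 CPM and positive sample 2 for Apoc2 at 51.48. The part of the cell mixture in these values was not tested.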

How the results depend on the processing

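Depth limited the class fits: 1 to 28 of the 32 genes had enough counts to be tested in a class. Numbers below are genes called. With DESeq2, all cells gave 1 in bone, 6 in brain and 1 in liver, and liver classes 3. With the replicate block, all brain cells gave 3, classes of bone, brain and liver 1, 1 and 4, and the interaction 6; in lung and IIA bone the labels do not say that same-numbered samples share an animal and the lowest correlations were -0.145 and 0.076 (3 of 4 and 3 of 6 pairs were highest with their own number), so no pairing was assumed, and the block moved neither count of all cells by over 1.5 times. In IIA bone classes the block left 1 of the 4 progenitor calls, Elovl5, and 5 of the 6 macrophage calls, all but Cyp51, and added Pltp in monocytes and Msmo1 in neutrophils. Without the low-count filter, classes gave 1 in brain, 7 in liver, 2 in lung and 18 in IIA bone, and tissues within classes 4. IIA bone classes gave 6 with at least 30 cells and 5 without the highest doublet scores. Without macrophage-type cells, all cells of brain and lung gave 0, and the interaction 0. Without granulocyte precursors, progenitors and unnamed cells, IIA bone gave 5. Leaving out 1 sample at a time gave 0 to 0 in bone, 0 to 2 in brain, 0 to 0 in liver, 6 to 12 in lung and 10 to 14 in IIA bone, 2 to 3 for the interaction, 0 to 5 in liver classes, 7 to 13 in IIA bone classes, and 0 to 0 in the classes of bone, brain and lung and between tissues. In lung without macrophage-type cells Mvd (-0.14), Lss (-0.53) and Dhcr7 (-0.33) reversed, as did Pltp in IIA bone (-0.47), and Elovl5 in IIA bone did so without granulocyte precursors (-0.0171). Over 40 single-gene results, 627 alternatives kept direction and side of the threshold, 145 kept direction only and 5 reversed, and 6 results passed under every alternative run. Ch25h in lung was among these 6, but it could not be tested without macrophage-type cells. The causes were not tested.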

Other observations

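Levels of the IIA bone pool cannot be set against those of the intracardiac samples. In that pool plasmacytoid dendritic cells had the highest summed level of the 13 cholesterol synthesis enzymes, at 570 ± 152 CPM (SD, n = 6). Stromal cells, a class that no intracardiac cluster was named for, followed at 485 ± 69.6 (n = 3). Hmgcs1 stood at 111 ± 43.3 CPM in plasmacytoid dendritic and 87.3 ± 20.1 in stromal cells, and Srebf2 at 153 ± 31.4 CPM in plasmacytoid dendritic cells. Fdps was close in stromal cells (114 ± 15.8 CPM), plasmacytoid dendritic cells (105 ± 50.9) and granulocyte precursors (84.5 ± 10.9). Scd1 stood at 310 ± 93.1 CPM in B cells and 38.4 ± 19.7 in B cell precursors, and Scd2 was highest in stromal cells at 221 ± 25.3 CPM. Fads1 was highest in basophils or mast cells at 52.1 ± 25.1 CPM (n = 4) and Fads2 in plasmacytoid dendritic cells at 63.2 ± 13.2.

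Over the means of 15 intracardiac classes, the genes whose level followed the enzyme sum most closely, of 5788 compared outside the 32, were Ech1 (Pearson r 0.88), Vkorc1l1 (0.88), Acadl (0.82), Incenp (0.81), Etfb (0.81), Tmed3 (0.81), Stmn1 (0.80), Ccdc34 (0.80), Cox5a (0.79) and Tpx2 (0.79). The class means share samples and differ in depth, so these values are descriptions. Among the 32, Idi1 (0.88) and Sqle (0.86), which are part of the sum, lay closest, and Insig1 (0.59), Srebf2 (0.41), Soat1 (0.09) and Mylip (-0.30), which are not, ranged widely.

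In brain negative samples Fdps stood at 92.6, 13.04, 16.5 and 73.6 CPM in replicates 1 to 4, and neutrophil and granulocyte precursors made up 22.4, 5.77, 3.55 and 32.2% of their cells. With 4 samples no relation was tested.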
